A study of Mus musculus with 4 samples.

Results

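The cells described here are blood cells that carried transcripts of Cd209a, a C-type lectin of the DC-SIGN family used in mouse as a marker of dendritic cells that share features with monocytes. They were chosen by measured values: a cell was a member if it held at least 2 Cd209a UMIs (unique molecular identifiers, each standing for 1 captured transcript), at most 4 UMIs of C1qa, C1qb and C1qc together, at most 2 of Cd79a and at most 1 of Cd3d, Cd3e and Cd3g together. Of 14588 cells, 64 (0.439%) were members: 14 in young 1, 15 in young 2, 11 in old 1 and 24 in old 2. The study profiled peripheral blood of C57BL/6 female mice by droplet single-cell RNA sequencing of transcript 3′ ends. The young group was 4 months old and the old group 24 months old. Each age had 2 samples, and each sample was, by the study's methods, a pool of 2 mice, so that n = 2 per age throughout and the 2 mice of a pool are not distinguished. Monocytes of the same pools were used for comparison and were cells with at least 10 UMIs of Lyz2 (lysozyme), no Cd209a UMI and at most 4 C1q UMIs: 132 and 211 cells (young 1 and 2) and 511 and 244 cells (old 1 and 2).

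Dendritic cells take up material in tissue and blood, load peptides onto MHC class II molecules and show them to Cd4 T cells. Conventional dendritic cells depend on the receptor tyrosine kinase Flt3 and its ligand and on transcription factors such as Irf4, Irf8 and Zbtb46, whereas monocytes depend on the receptor Csf1r, and monocytes can take on dendritic cell genes, Cd209a among them. Plasmacytoid dendritic cells, the type I interferon producers, are marked in mouse by Siglech and Bst2 and by the factor Tcf4.

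Cd209a lies on chromosome 8 (GRCm38, 3743397 to 3748984, minus strand) beside a family of related lectins, of which Cd209d (8, 3871824 to 3878555, minus strand) was also read in members. Both genes are protein coding. Their promoters, 250 bases before to 50 bases after the RefSeq start (GRCm38.p6, minus strand for both), are shown because these genes were read in the same cells. Capitals mark matches to the Ets-IRF composite element (GGAA, 2 bases of any kind, GAAA) bound by PU.1 with Irf4 or Irf8, and to the PU.1 core GAGGAA, on either strand.
Cd209a, chr8:3748935-3749234: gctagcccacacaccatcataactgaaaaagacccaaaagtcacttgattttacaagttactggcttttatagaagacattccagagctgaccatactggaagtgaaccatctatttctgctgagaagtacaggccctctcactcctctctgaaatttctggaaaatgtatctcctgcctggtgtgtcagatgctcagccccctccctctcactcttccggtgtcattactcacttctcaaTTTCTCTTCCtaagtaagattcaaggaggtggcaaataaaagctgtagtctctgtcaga
Cd209d, chr8:3878450-3878749: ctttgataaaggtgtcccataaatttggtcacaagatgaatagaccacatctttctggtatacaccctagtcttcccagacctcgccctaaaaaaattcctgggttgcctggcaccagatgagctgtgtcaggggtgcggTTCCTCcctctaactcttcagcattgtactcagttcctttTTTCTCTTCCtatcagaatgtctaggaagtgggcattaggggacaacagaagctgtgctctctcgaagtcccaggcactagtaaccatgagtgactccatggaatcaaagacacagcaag
The composite element was matched once in each promoter, on the minus strand relative to the gene. In Cd209a it ran from base -9 to base 1 counted from the start, and in Cd209d from base -70 to base -61. Of 27025 promoters of the same length, 2.79% held this element. The PU.1 core was matched in Cd209d, from base -110 to base -105, and 28.3% of all promoters held it. The 2 motifs did not overlap in these promoters. A match describes letters and is no evidence of binding. Aligned from end to end, the promoters were 45.5% identical.

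Members made up 0.359% of cells in young 1 (95% exact binomial interval 0.196 to 0.601%), 0.389% in young 2 (0.218 to 0.641%), 0.237% in old 1 (0.118 to 0.424%) and 1.10% in old 2 (0.704 to 1.63%). The lowest and the highest share thus both came from old samples, and the old mean of 0.667% ± 0.608 (SD, n = 2) did not differ from the young mean of 0.374% ± 0.0213 beyond the spread between samples (two-sided exact permutation test over 6 labellings, p = 1, where the smallest possible p is 0.33). Of members and monocytes together, members were 9.59% and 6.64% in young 1 and young 2, 2.11% in old 1 and 8.96% in old 2 (exact permutation p = 0.667). Old 1 was the low sample on this scale and also held the most monocytes. Intervals cover counting error only. The gate is a UMI minimum, and depth differed with age. The median of all cells was 2332 and 2233 UMIs in young 1 and young 2 and 3186.5 and 3482 in old 1 and old 2. With each cell thinned to 1000 UMIs and a Cd209a minimum of 1 UMI, the shares were 0.359%, 0.467%, 0.194% and 0.732% in the same order. Barcodes shared by more than 1 sample were 108, in 216 cells, and 2 members carried one, though no barcode was held by 2 members.

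**Figure D1:**
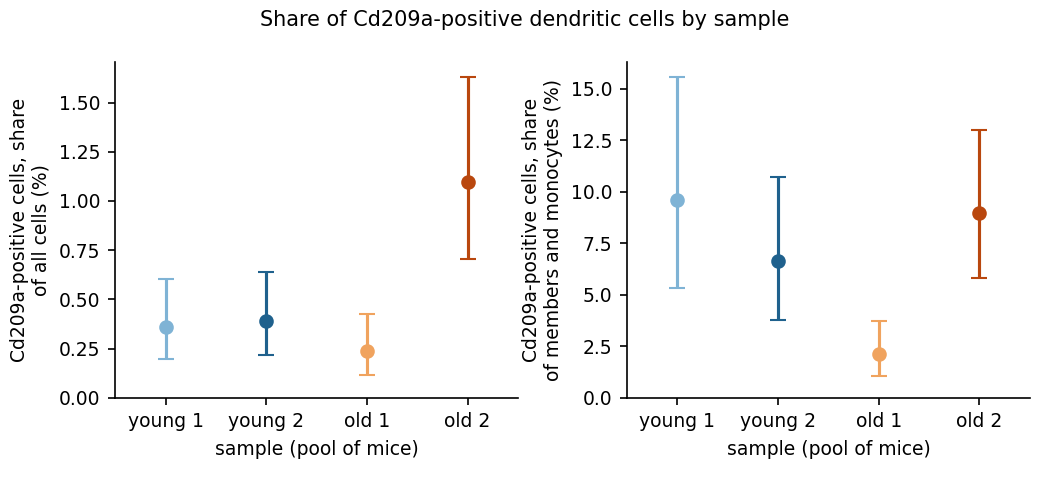
Share of Cd209a-positive dendritic cells in each of the 4 samples, as a percentage of all cells (left) and of members plus monocytes (right). Points are the shares and bars their 95% exact binomial intervals. Old 2 lies highest on the left at 1.10%, and old 1 lowest in both plots at 0.237% and 2.11%.

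Since Cd209a chose the members, its own counts are a description. They ran from 2 to 31 UMIs per member with a median of 5.5, and 41 members held at least 5. The level of Cd209a over all members of a sample was 1452 and 1650.0 CPM in the young and 1033 and 1189 CPM in the old samples, where CPM are UMIs scaled to a total of 1000000 UMIs over the cells summed. The 10 members with exactly 2 Cd209a UMIs and the 22 cells left out with exactly 1 were alike in depth, with medians of 5159 and 5030 UMIs. Flt3 had a UMI in 3 of those 10 and 7 of those 22, Cd7 in 5 and 7, Klrd1 in 5 and 4, Ccr2 in 10 and 16 and Syngr2 in 8 and 16. Of 76 cells with at least 2 Cd209a UMIs, the C1q limit removed 1, the Cd79a limit 6 and the Cd3 limit 5.

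Members held 62679 and 69089 UMIs in young 1 and young 2 and 69705 and 155610 in old 1 and old 2, so that 3 counts, taken as the limit a count of 0 allows, correspond to 47.9, 43.4, 43.0 and 19.3 CPM. The median member held 4576 and 5590 UMIs in young 1 and young 2 and 5814 and 6063 in old 1 and old 2, against 2939 to 4442 in monocytes. Markers of other cells differed in level. The gate limits Cd79a, Cd3d, Cd3e, Cd3g, C1qa, C1qb and C1qc, so the sums given here leave these genes out. Monocytes carried no limit on Cd79a or Cd3, so their sums are not set against those of members for lymphocyte genes. In young 1, young 2, old 1 and old 2, the other B cell markers summed to 144, 145, 229.5 and 116 CPM, and Cd79b had a UMI in 29 members. The other T cell markers summed to 79.8, 86.8, 14.3 and 6.43 CPM and natural killer cell markers to 590.3, 86.8, 71.7 and 25.7 CPM. Both sums were lower in each old sample than in either young one, but they are too sparse to order the ages. The old T cell sums lay below the 43.0 and 19.3 CPM that a count of 0 allows. The natural killer cell sums of young 2 and old 1 lay close together. Platelet markers summed to 0, 14.5, 201 and 90.0 CPM, with Ppbp in 7 members, and the other macrophage markers to 877, 738, 674 and 83.5 CPM, with Vcam1 at 0. Of 10 neutrophil markers, 6 were at 0, S100a9 and Retnlg among them. Red cell markers were high, at 4339.6, 21494, 107438 and 93432 CPM, nearly all of it haemoglobin.

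The 3 genes given as marks of these cells were not alike. Syngr2, a synaptogyrin of vesicle membranes, had a UMI in 55 members, at 670.1 and 492 CPM in the young and 416 and 617 CPM in the old samples. Monocytes held 219 and 212 CPM in the young and 181 and 208 CPM in the old samples, so that every sample had more Syngr2 in members than in monocytes (log2 1.35 ± 0.16, adjusted p = 1.3e-07, edgeR's quasi-likelihood test with Benjamini-Hochberg adjustment). Here and below, ± after a log2 value is a standard error. It was derived from the F statistic of the edgeR test and is no spread between samples. Ccr2, the receptor that draws monocytes out of bone marrow, had a UMI in 53 members, at 1069 and 564 CPM in the young and 732 and 874 CPM in the old samples. It did not separate members from monocytes, which held 455 and 412 CPM in the young and 963 and 1147 CPM in the old samples (log2 0.09 ± 0.17, adjusted p = 0.82 by edgeR). Members were above monocytes in both young samples and below them in both old ones.

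Defining genes of dendritic cells were read in part of the members, in counts that were not thinned. Flt3 had a UMI in 33 of 64 members (51.6%), against 0.745% of B cells, which should lack it, and 1.55% of monocytes. Clec10a, a galactose-binding lectin, had one in 28 members, Itgax (the integrin chain Cd11c) in 15, Mgl2 in 8 and Zbtb46 in 7. The class II chain H2-Aa had a UMI in 52 members, but 12 had none. Among monocyte genes, Ms4a6c had a UMI in 61 members, Ly6c2 in 42, Csf1r in 29 and Fcgr1 in 17. Xcr1, the defining receptor of type 1 dendritic cells, was at 0 (0 of 64 cells, which allows a share of cells with a UMI of up to 4.69% and sets no limit on cells that express it), and Clec9a had a UMI in 6 members. Fscn1, Ccl17 and Ccl22, genes of mature dendritic cells, were at 0 as well, as was Top2a, a gene of dividing cells.

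Lyz2, which the rule for members did not use, spread widely among them. It ran from 0 to 304 UMIs per member with a median of 9, and 31 members held at least 10, the number that defined monocytes here. These 31 were spread over all samples, with 7 in young 1, 8 in young 2, 7 in old 1 and 9 in old 2. Of the 33 members with fewer than 10 Lyz2 UMIs, 19 held at least 20 UMIs of H2-Aa and 14 held fewer. The 19 were 2, 3, 3 and 11 cells of young 1, young 2, old 1 and old 2, and the 14 were 5, 4, 1 and 4. These are ranges of values and no cell types: 13 members held 5 to 19 Lyz2 UMIs, and 8 of the members low in Lyz2 held 10 to 39 H2-Aa UMIs. The cutoffs were set with the values in view, so the 3 ranges are described with no test. Counts of cells with a UMI in the ranges are not thinned, and the median cell held 5317 UMIs in members high in Lyz2, 6193 in those low in Lyz2 with high H2-Aa and 4335 in those low in both. A count of 0 of 14 cells allows a share of cells with a UMI of up to 21.4%, which limits no share of cells that express the gene.

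Class II genes followed the H2-Aa cutoff that drew the ranges. In members high in Lyz2, in those low in Lyz2 with high H2-Aa, and in those low in both, Cd74, the invariant chain of class II, stood at 20818, 45423 and 5043 CPM, in that order. H2-DMb1, which helps peptide exchange, was at 969, 1223 and 991 CPM and hardly varied between the ranges. Ciita, the master activator of class II genes, had a UMI in 6 of 31, 11 of 19 and 2 of 14 cells, and H2-Oa, a partner of H2-DM, in 1 of 31, 14 of 19 and 4 of 14 cells. Zbtb46, restricted among immune cells mostly to conventional dendritic cells, was read in 1 of 31, 6 of 19 and 0 of 14 cells, so that 6 of its 7 cells lay in the range with low Lyz2 and high H2-Aa. Flt3 was present in each range, at 96.9, 187 and 187 CPM. Mgl2 and Clec4b1 were read in none of the 14 cells low in both, whereas Clec10a had a UMI in 4 of them.

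Part of the 14 members low in both Lyz2 and H2-Aa carried genes of plasmacytoid cells. Of the 14, 11 held at least 5 Cd7 UMIs and 7 held Siglech, so the levels that follow are sums over unlike cells. Siglech had a UMI in 7 members, 1 in young 1, 1 in young 2, 1 in old 1 and 4 in old 2, and all 7 belonged to the 14. Each of these 7 held 0 to 2 Lyz2 UMIs, 0 to 11 H2-Aa UMIs, 7 to 21 UMIs of Cd7 and at least 1 of Ly6c2. Free Siglech RNA was scarce, with a UMI in 0.0422% of B cells and 1 UMI in all monocytes. In the same order of ranges, Tcf4 stood at 62.7, 80.3 and 589 CPM, Bst2 at 308, 232 and 1839 CPM, Irf8 at 165, 26.8 and 1121 CPM and Runx2 at 5.70, 8.93 and 172 CPM. For these 4 genes the range low in both was the highest. Cd7, a receptor of lymphoid and dendritic cells, was at 217, 661 and 2256 CPM, and Cd209d had a UMI in 7 of 31, 0 of 19 and 7 of 14 cells, none of them in the range with high H2-Aa. The plasmacytoid genes Klk1 and Tlr9 were at 0 in all members, and Ccr9 was read in 4. Tlr7, of the same list, was at 0 in all members low in Lyz2, and Cox6a2 had a UMI in 2 of them. Cd209a itself had a median of 5, 6 and 5 UMIs per cell in the 3 ranges.

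Members high in Lyz2 carried more monocyte genes than the others. F13a1, the coagulation factor XIII chain of classical monocytes, had a UMI in 23 of 31, 2 of 19 and 0 of 14 cells, and Fcgr1, the high-affinity IgG receptor, in 14 of 31, 3 of 19 and 0 of 14 cells. Fcgr3 was read in 16 of 31, 1 of 19 and 0 of 14 cells and Csf1r in 20 of 31, 7 of 19 and 2 of 14 cells. Ly6c2 did not follow this order, at 1185, 152 and 1724 CPM, lowest in the range with high H2-Aa. Flt3 still had a UMI in 14 of the 31 members high in Lyz2, so that both receptors of the dendritic and monocyte lines were read in that range.

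**Figure D2:**
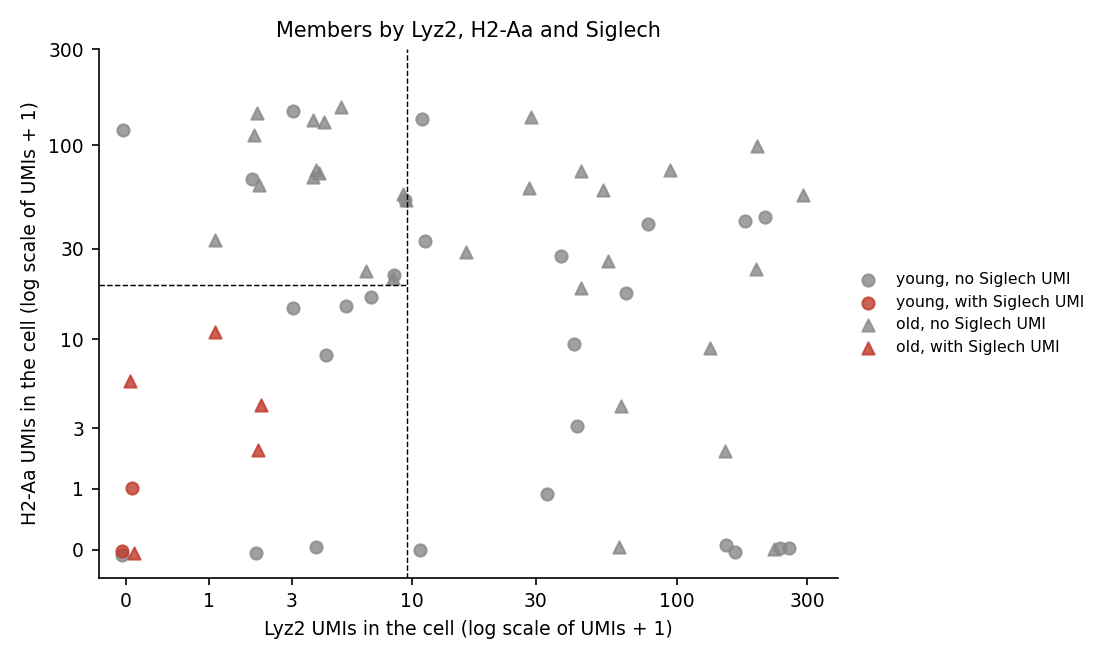
Each point is 1 of the 64 members, by its Lyz2 UMIs (x) and H2-Aa UMIs (y), both on a log scale of UMIs + 1 and slightly jittered. Circles are young and triangles old, red marks a Siglech UMI, and dashed lines mark 10 Lyz2 and 20 H2-Aa UMIs. The 7 red points lie at 0 to 2 Lyz2 UMIs and 0 to 11 H2-Aa UMIs.

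The comparison of members with monocytes of the same pools asked how the 2 gates differ in genes they did not read. UMIs were summed per sample and cell type and tested with the sample as a block, over 4881 genes with a UMI in at least 10% of either type. By edgeR's quasi-likelihood test with Benjamini-Hochberg adjustment, 231 genes (4.73% of those tested) were higher and 382 (7.83%) lower in members at an adjusted p below 0.05, the genes of the gates left out. Both gates were set on transcripts of the same cells, so genes that accompany Cd209a or Lyz2 within a cell follow from the choice. Members were above monocytes in all 4 samples for 14.1% of genes tested and below in all 4 for 15.6%. A gene read in 10% of only 1 type entered the test through the type where it is high, so counts over gene groups are given for the 3455 genes with a UMI in at least 10% of each type, of which 3.76% were called higher and 7.79% lower, with a median log2 difference of -0.08. DESeq2 called 140 higher and 165 lower, and members high in Lyz2 alone gave 59 higher and 184 lower. Without old 2, which held the most members, 351 genes were called.

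Genes of class II presentation were higher in members. Of 11 genes read in both types, 7 rose in members against monocytes and 0 fell, with a median log2 difference of 1.75. H2-Aa was read at 3015 and 9046 CPM in the young and 4146 and 10051 CPM in the old samples in members and at 586 and 1157 CPM in the young and 831 and 989 CPM in the old samples in monocytes (log2 2.69 ± 0.15, adjusted p = 6.4e-15 by edgeR). The lowest member value, that of young 1, was above the highest monocyte value. H2-Ab1 (log2 2.59 ± 0.16, adjusted p = 1e-13) and H2-Eb1 (log2 2.56 ± 0.17, adjusted p = 5.3e-13) moved by similar amounts in edgeR's test. H2-DMb1 gave log2 2.81 ± 0.15, adjusted p = 4e-15, and Cd74, H2-DMa and the thiol reductase Ifi30 were also higher, as were H2-Oa and Ciita, which entered the test through members alone. Of 18 class I genes, 1 was higher (the chaperone Calr), and B2m and H2-K1 were lower, counts near the shares over all genes read in both types.

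Of 21 conventional dendritic cell genes tested, 12 entered through members alone, Flt3, Clec10a and Mgl2 among them, so that their direction was fixed by the filter. Of the 9 read in both types, Tmem176a, Tmem176b, Cbfa2t3 and Bcl11a were higher and none was lower, with a median log2 difference of 0.16. Flt3 stood at 144 and 130.3 CPM in the young and 172 and 135 CPM in the old samples in members and at 0 and 4.15 CPM in the young and 4.51 and 4.50 CPM in the old samples in monocytes (log2 5.15 ± 0.44, adjusted p = 2.1e-10 by edgeR). All 4 samples of members lay far above all 4 of monocytes. Clec10a stood at 63.8 and 101 CPM in the young and 258 and 269.9 CPM in the old samples in members (log2 4.00 ± 0.34, adjusted p = 2.8e-10 by edgeR against monocytes). Mgl2, its close neighbour on chromosome 11, was read in young 2 (463 CPM) and old 2 (116 CPM) and at 0 in the other 2 samples, and monocytes held 2 UMIs of it, so that its ratio of 314 had a 95% counting interval of 82.4 to 2661. Kmo, an enzyme of tryptophan breakdown, Dpp4 (Cd26), Zbtb46, Irf4, Cd7 and Klrd1 were also called higher among those read mostly in members.

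Among genes of at least 100 CPM with the same sign in all 4 samples, which leaves out Mgl2 (fitted log2 7.19), Cd7 had the largest fitted difference, at 941 and 839 CPM in the young and 789 and 623 CPM in the old samples in members and at 2.36 and 4.15 CPM in the young and 14.4 and 2.70 CPM in the old samples in monocytes (log2 6.59 ± 0.26, adjusted p = 1.1e-18 by edgeR). Genes known from natural killer cells were also higher. Like Cd7, the genes Klrd1, Klrk1 and Slamf7 entered the test through members alone, so that their direction was fixed by the filter. Klrd1 (Cd94) was at 351 and 347 CPM in the young and 100.4 and 495 CPM in the old samples in members (log2 4.84 ± 0.39, adjusted p = 9.7e-11), and Klrk1 (NKG2D) and Slamf7 gave log2 2.93 ± 0.39, adjusted p = 1.5e-06 and log2 4.22 ± 0.41, adjusted p = 5e-09 by edgeR. Of 6 natural killer cell markers fixed as a list, none of the 2 tested was called by edgeR and Ncr1 had 1 UMI in all members, while their summed level was 590.3 CPM in young 1 and 25.7 to 86.8 CPM in the other samples of members. Klrd1 was read in 10 of 31, 15 of 19 and 13 of 14 cells of the 3 ranges. The part of natural killer cell RNA in these values was not tested.

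Cd209d, read in 14 members, stood at 175 and 101 CPM in the young and 14.3 and 51.4 CPM in the old samples and had no UMI in monocytes, where it was at least 113-fold lower with 3 counts taken as its limit over all monocytes. Monocytes were required to lack Cd209a, and reads shared between these paralogs cannot be told apart here, so the Cd209d level is uncertain. Siglech, with 23 UMIs in members and 1 in monocytes, had a ratio of 288 with a counting interval of 46.8 to 11884. Of 4 plasmacytoid genes read in both types, Bst2 and Tcf4 were higher in members, and Lair1 and Ly6d lower. Upb1, an enzyme of pyrimidine breakdown, Avpi1, the lectin Clec4b1 and Rnd3 were also among the genes with the largest rise, at log2 differences of 4.32, 2.98, 2.87 and 2.23. They entered the test through members alone, so that their direction was fixed by the filter.

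Genes of nonclassical monocytes were lower in members. All 8 read in both types fell, with a median log2 difference of -1.48, and the other 9 tested entered through monocytes alone, so that their fall was fixed by the filter. Nr4a1, the nuclear receptor on which these monocytes depend, was at 0 and 28.9 CPM in the young and 71.7 and 6.43 CPM in the old samples in members and 356 and 228 CPM in the young and 148 and 141 CPM in the old samples in monocytes (log2 -3.17 ± 0.42, adjusted p = 1.5e-06 by edgeR). Cebpb gave log2 -3.23 ± 0.44, adjusted p = 2.1e-06, Pglyrp1, a peptidoglycan-binding protein, log2 -4.56 ± 0.30, adjusted p = 9.4e-13, and Ear2 log2 -5.13 ± 0.43, adjusted p = 2.1e-10 by edgeR. Of these, Pglyrp1 was read in both types, whereas Nr4a1, Cebpb and Ear2 entered through monocytes alone, so that their direction was fixed by the filter. Some other genes of the list that entered through monocytes were near absent in members. Ace had 1 UMI in members and 895 in monocytes, a ratio of 71.4 with a counting interval of 12.8 to 2822, and Treml4 had 1 and 568 UMIs (ratio 45.3, interval 8.1 to 1792). Fabp4 had 1 UMI in members, and so had Pla2g7 and Cd36, which are not on the list. Cd300e of the list and Trem3 and S1pr5, which are not on it, had none. Trem3, S1pr5 and Cd300e were at least 11.5-fold, 6.51-fold and 9.22-fold lower.

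Classical monocyte genes were lower for 10 of 18 read in both types and higher for 1, Plbd1. Chil3, a chitinase-like protein, was at 351 and 14.5 CPM in the young and 0 and 6.43 CPM in the old samples in members and at 709 and 482 CPM in the young and 1635 and 2165 CPM in the old samples in monocytes (log2 -4.26 ± 0.45, adjusted p = 2.2e-08 by edgeR). Its members' level came mostly from young 1, and Chil3 entered the test through monocytes alone, so that its direction was fixed by the filter. Csf1r was lower (log2 -1.64 ± 0.18, adjusted p = 7.6e-08 by edgeR). Ly6c2 was called lower over the 4 samples together (log2 -0.68 ± 0.21, adjusted p = 0.03 by edgeR), but its direction differed between ages. Members were above monocytes in young 1 (1516 against 996 CPM) and young 2 (1071 against 951 CPM). They were below monocytes in old 1 (660 against 2499 CPM) and old 2 (835 against 2034 CPM). Among 5 Fc receptors, Fcgr3 and Fcer1g were lower and Fcgrt, the neonatal receptor, higher. Of genes with at least 100 CPM in monocytes, Pilra, Eno3, Gm5150 and Ly6i were also among those with the largest fall, at log2 differences of -4.34, -3.47, -3.24 and -3.20. They too entered through monocytes alone, so that their direction was fixed by the filter.

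**Figure D3:**
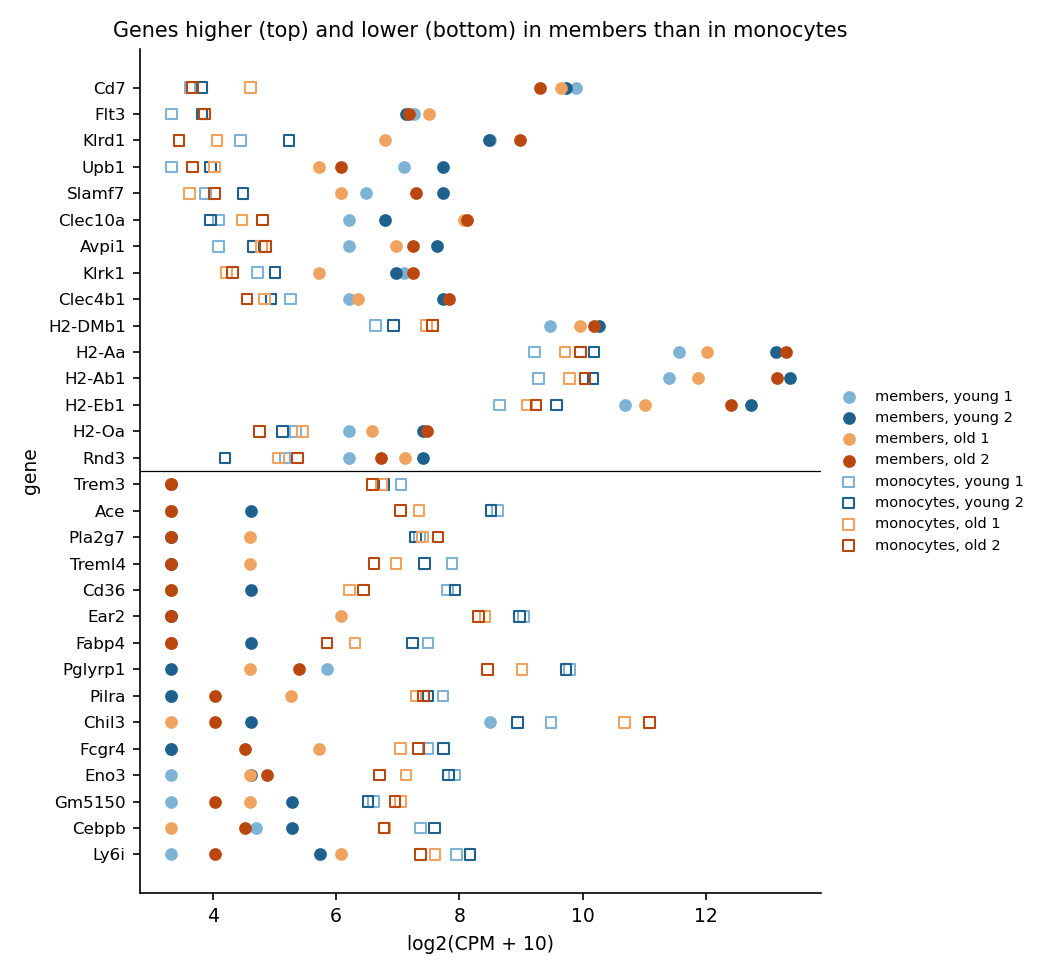
Level of the named genes in members (filled circles) and monocytes (open squares) in each of the 4 samples, as log2(CPM + 10). The 15 genes above the line were higher and the 15 below it lower in members in every sample, with fitted log2 differences from 2.23 to 6.59 above the line.

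Other groups moved less or both ways, counted again over genes read in both types. Of 25 transcription factors of dendritic and myeloid cells, Batf3, Nfkb1, Irf8, Bcl11a and Tcf4 were higher, and Zeb2 and Klf2 lower. Irf8 was at 511 and 449 CPM in the young and 186 and 218 CPM in the old samples in members (log2 0.83 ± 0.20, adjusted p = 0.0035 by edgeR). Of 15 S100 and annexin genes, Vim, S100a10, Crip1 and Lgals1 were higher. Among 17 adhesion genes, Selplg, the ligand of selectins, and the integrin chain Itgb7 were higher, and Itga4, Cd9, Spn and Itgal lower. C-type lectins had 0 higher and 3 lower of 6 (median log2 -1.11), lysosomal genes 3 higher and 5 lower of 18 (median log2 -0.10) and interferon-stimulated genes 1 higher and 8 lower of 27 (median log2 -0.44). Cytoplasmic ribosomal protein genes had 10 higher and 0 lower of 83 (median log2 0.08) and mitochondrially encoded genes 0 higher and 4 lower of 11 (median log2 -0.35). Oxidative phosphorylation genes had 0 higher and 10 lower of 75 (median log2 -0.18). For the higher classical monocyte and interferon-stimulated genes, the counts were near the shares over all genes read in both types. The same held for the lower transcription factors and the lower oxidative phosphorylation and Toll-like receptor pathway genes (Ly96 of 8). Of 7 cytokines and chemokines, Ccl6, Tgfbi and Ltb were lower, and of 6 genes of a senescence list, whose Cdkn2a had no UMI in members, the survival genes Bcl2 and Mcl1.

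Between ages, few genes of the members differed. Over 3869 genes with a UMI in at least 10% of members of each age, 5 genes (0.129%) were higher in old and 2 (0.0517%) lower by edgeR, 171 (4.42%) had an unadjusted p below 0.05, and DESeq2 called no gene, with 14 at an unadjusted p below 0.05. With the size factors of DESeq2 in edgeR, 5 were higher and 1 lower, and 19, 12 and 11 genes were called without young 2, old 1 and old 2. The old samples lay above both young ones for 9.82% of genes and below both for 24.2% on the CPM scale, and haemoglobin took up to 106908 CPM in old members.

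Haemoglobin led the genes that were higher. Hba-a1 was at 814 and 3387 CPM in the young and 25508 and 21721 CPM in the old samples (log2 3.61 ± 0.35, adjusted p = 1.7e-07 by edgeR), Hba-a2 gave log2 3.63 ± 0.36, adjusted p = 1.7e-07, Hbb-bt log2 3.30 ± 0.36, adjusted p = 1e-06 and Hbb-bs log2 2.67 ± 0.38, adjusted p = 0.00014. The rise lay in 4 cells, 1 member of old 1 with 6432 haemoglobin UMIs and 3 members of old 2 with 13199 in all, and each of the other 60 members held at most 160. Without these 4, Hba-a1 was at 3158 and 1634 CPM in the old samples, between or beside the young values, and none of the 4 haemoglobin genes was called (adjusted p = 1 by edgeR for each). Members with over 1000 haemoglobin UMIs were absent from the young samples, whereas monocytes with as many were present in all 4, at 4, 11, 19 and 12 cells. Mkrn1, an E3 ubiquitin ligase abundant in red cell precursors, was at 128 and 101 CPM in the young and 344 and 405 CPM in the old samples (log2 1.88 ± 0.37, adjusted p = 0.017 by edgeR) and was no longer called without the 4 cells (log2 0.82, adjusted p = 1), without young 2 (adjusted p = 0.067) or without old 2 (adjusted p = 0.25).

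The 2 genes lower in old members were Trf and Aif1. Trf, which encodes the iron carrier transferrin, was at 622 and 521 CPM in the young and 129 and 135 CPM in the old samples (log2 -1.93 ± 0.32, adjusted p = 0.0013 by edgeR). Both old values lay below both young ones by a wide margin, and the call held without the 4 haemoglobin-rich cells (log2 -2.03, adjusted p = 0.0039) and without each sample in turn, but was lost in DESeq2 (log2 -1.96, adjusted p = 1), with edgeR's own expression filter (log2 -1.94, adjusted p = 0.051), in members without lymphocyte or platelet UMIs (log2 -1.79, adjusted p = 0.98), in thinned counts (log2 -1.97, adjusted p = 0.99) and in members split by Lyz2 (log2 -2.63 below 10 UMIs and -1.42 from 10, adjusted p = 0.99 in each). Aif1 (Iba1), a calcium-binding protein of myeloid cells, was at 271 and 203 CPM in the young and 71.7 and 19.3 CPM in the old samples (log2 -2.50 ± 0.54, adjusted p = 0.045 by edgeR), and its call was lost without the 4 cells (log2 -2.35, adjusted p = 0.13), without young 1 (log2 -2.34, adjusted p = 0.14), without old 2 (log2 -1.57, adjusted p = 0.70), with the size factors of DESeq2 (log2 -2.51, adjusted p = 0.055) and in DESeq2 (log2 -2.39, adjusted p = 1). In monocytes Aif1 was at 198 and 194 CPM in the young and 199 and 191 CPM in the old samples, and Trf at 207 and 215 CPM in the young and 139 and 209.5 CPM in the old samples.

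**Figure D4:**
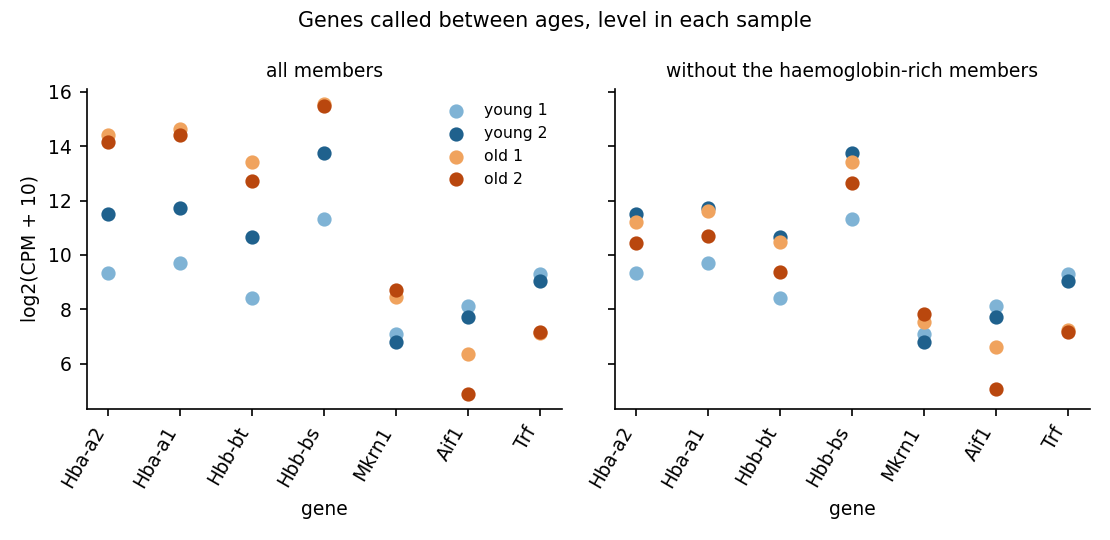
Level in each sample, as log2(CPM + 10), of the 7 genes called between ages in members, over all members (left) and without the 4 members that held over 1000 haemoglobin UMIs (right). On the right the haemoglobin genes of old and young samples overlap, while Trf stays at 140 and 135 CPM in the old against 622 and 521 CPM in the young samples.

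None of the genes that define these cells was called between ages by edgeR. Flt3 differed by log2 0.27 ± 0.44, Syngr2 by 0.05 ± 0.26 and Ccr2 by 0.17 ± 0.24. Clec10a was higher in each old sample than in either young one and did not pass (log2 1.81 ± 0.43, adjusted p = 0.12), and Irf8, at 511 and 449 CPM in the young and 186 and 218 CPM in the old samples, had both below and did not pass (log2 -1.05 ± 0.31, adjusted p = 0.4). The range low in Lyz2 and H2-Aa, where Irf8 was highest, held 5 and 4 of the young and 1 and 4 of the old members, and the part of this mix of ranges in the age values was not tested. Ccl5, a chemokine, was at 495 and 188 CPM in the young and 100.4 and 57.8 CPM in the old samples (log2 -2.04 ± 0.46, adjusted p = 0.064 by edgeR, just outside the threshold). The T cell and natural killer cell markers summed above were lower in old members too, though too sparse to order the ages. Their part in the Ccl5 values was not tested. These 3 were named after their values were seen. Thinned to 1000 UMIs per cell, Flt3 was read in 21.4% of the members of young 1, 6.67% of young 2, 9.09% of old 1 and 16.7% of old 2 (exact permutation p = 1), against 0.211% of B cells. Syngr2 had one in 57.1%, 53.3%, 0% and 58.3% of members of young 1, young 2, old 1 and old 2 (exact permutation p = 1), where old 1, with 0 of 11 cells (which allows a share of cells with a UMI of up to 27.3%), had 72.7% before thinning.

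As lists, class II genes and interferon-stimulated genes had no member called between ages. Class II genes were higher in old members for 12 of 13 tested, with a median log2 difference of 0.31 where the median of all genes tested was -0.01, 1 of them had an unadjusted p below 0.05 against 4.42% of all genes, and none was higher in each old sample than in either young one. The level of class II genes varied more between duplicates than between ages: the summed list stood at 23054 CPM in young 1, 58475 in young 2, 32724 in old 1 and 63807 in old 2. Interferon-stimulated genes were higher for 23 of 30 tested, with a median of 0.60, 7 at an unadjusted p below 0.05 and 9 separated in this way, against 9.82% of all genes. On the CPM scale, 65 of 83 cytoplasmic ribosomal protein genes were lower in each old sample than in either young one, against 24.2% of all genes, with a median log2 difference of -0.09 after TMM and none at an unadjusted p below 0.05. Ifi27l2a, the leading gene by p of the interferon-stimulated list, was at 1532 and 984 CPM in the young and 3027 and 1562 CPM in the old samples in members and at 1731 and 1914 CPM in the young and 5527 and 3032 CPM in the old samples in monocytes (log2 0.99 ± 0.25, adjusted p = 0.14 by edgeR in members). Conventional dendritic cell genes had a median of 0.13 over 21 tested, with 1 at an unadjusted p below 0.05. Classical monocyte genes had a median of 0.43 over 18, with 8, and transcription factors -0.26 over 29, with 5.

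Whether age differences were the same in members and monocytes was tested as an interaction over 2860 genes with a UMI in at least 10% of both types at both ages. The age difference was more positive in members for 6 genes (0.21%) and more negative for 10 (0.35%) by edgeR. The 6 were the 4 haemoglobin genes, Tspan13, a tetraspanin, and Cd74. Ly6c2, the surface mark of classical monocytes, was at 1516 and 1071 CPM in the young and 659.9 and 835 CPM in the old samples in members and at 996 and 951 CPM in the young and 2499 and 2034 CPM in the old samples in monocytes (interaction log2 -1.86 ± 0.23, adjusted p = 4.9e-07). Its old monocyte values were above the young ones and its old member values below them. Cd74 was at 11359.5 and 26705 CPM in the young and 18420.5 and 33745 CPM in the old samples in members and at 4623 and 6376 CPM in the young and 3976 and 4869.6 CPM in the old samples in monocytes (interaction log2 0.89 ± 0.21, adjusted p = 0.024 by edgeR).

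For 8 of the 10 genes with a more negative age difference in members, both old monocyte samples lay above both young ones, Ly6c2 among them. S100a10, an annexin partner, stood at 1085 and 955 CPM in the young and 789 and 629.8 CPM in the old samples in members and 405 and 381 CPM in the young and 708 and 677 CPM in the old samples in monocytes (interaction log2 -1.29 ± 0.23, adjusted p = 0.00074 by edgeR). Lgals1 and Lgals3 (galectins), Ccr2, F13a1, Ifi30 and Mpeg1, a pore-forming protein of phagocytes, were the others. For Trf and Aif1 the old monocyte samples did not lie above both young ones. With monocytes restricted to at least 3 Ly6c2 UMIs, which leaves 526 of the 1098, 5 genes were more positive and none more negative by edgeR, where the level of Ly6c2 itself was set by the choice. With members low in Lyz2 alone, which leaves 4 members in old 1, none was called, and with members high in Lyz2 3 were more positive and none more negative. DESeq2 called 4 and 1, and without old 2 edgeR called 7 genes in all.

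**Figure D5:**
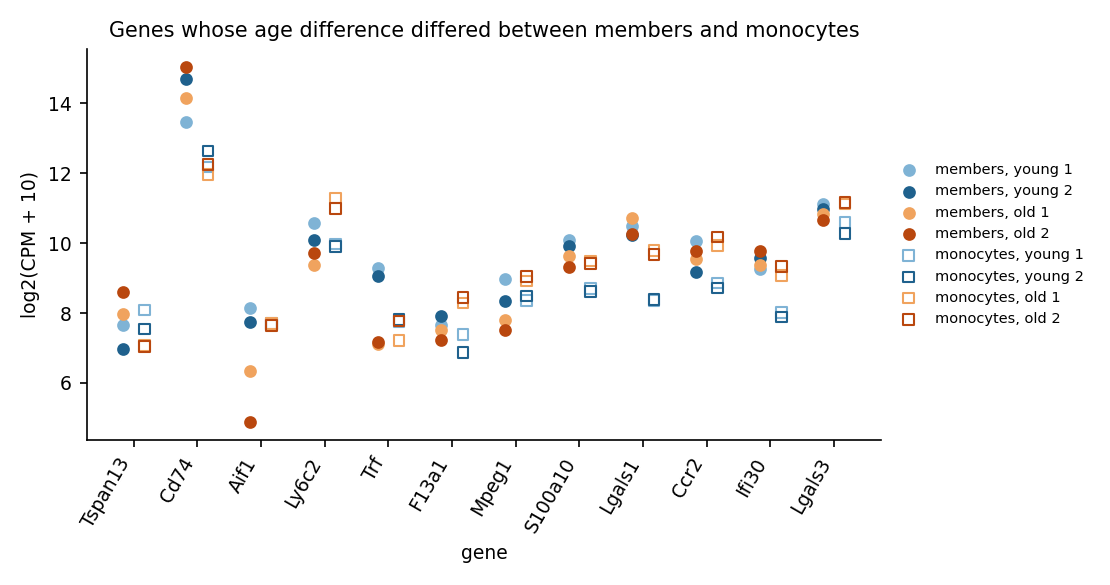
Level in each sample, as log2(CPM + 10), of the 12 genes other than haemoglobin whose age difference differed between members (filled circles) and monocytes (open squares). For Ly6c2, old monocytes lie at 2499 and 2034 CPM above young ones at 996 and 951 CPM, while old members lie below young members.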

How the data were processed

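UMI counts per gene and cell were deposited by the authors, who made them with Cell Ranger on mm10 from 10x Chromium 3′ libraries of peripheral blood, combined the duplicates of each age and kept cells by genes detected and mitochondrial share for Seurat 2.3.0 (503 to 3960 genes per cell in the files). The deposited counts hold 14697 genes and 50780376 UMIs (9521253 to 18658072 per sample) and were used with no further normalization. Cells were assigned to samples by the deposited list of cells. The methods state pools of 2 mice per sample, whereas the results speak of 2 mice per age. Sources used here do not state whether reads were equalised when samples were combined.

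The members, the comparison and the gene lists were chosen with earlier results of these data known. Sums of UMIs over the members or the monocytes of a sample were tested by the quasi-likelihood method of edgeR 4.0.16, with TMM factors and a Benjamini-Hochberg threshold of 0.05. The age test had no covariates, and the sample was a block for members against monocytes and for the interaction. DESeq2 1.42.0 was an alternative. The alternatives that leave out haemoglobin-rich members or haemoglobin genes, keep members with at least 10 Lyz2 UMIs or limit S100a8 and S100a9 in monocytes were chosen after seeing the data. Levels are CPM of summed UMIs, and shares of members with a UMI were compared between ages after thinning to 1000 UMIs per cell, while other counts of cells with a UMI are not thinned. B cells used as background held at least 5 Cd79a UMIs, no Cd3 UMI and fewer than 10 of Lyz2. Intervals are 95% exact binomial or Poisson intervals. Doublets were not called, and the limits on Cd79a and Cd3 remove only those with lymphocytes.

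Genes named are the gate genes and given markers, all called genes for age and interaction, the 15 largest called differences per direction with the same sign in all samples and at least 100 CPM against monocytes, called list members and the leading genes of lists. Other genes were named after their values were seen. One result among the transcription factors is not reported here. In simulated counts of 3869 genes, the age test called 55 of 67 genes changed by a log2 of 2 (82.1%) and 7 of 67 changed by 1 (10.4%). Changes were set only in genes above a minimum sum of UMIs, so recovery of sparser genes was not measured. Counts were drawn with the trended dispersion that edgeR had fitted and were tested by the same method. Recovery of genes more variable than that trend was thus not measured either. Scripts ran in R 4.3.3 and, with matplotlib 3.10.9, Biopython 1.88, pandas 2.3.3, scipy 1.17.1 and numpy 2.4.6, in Python 3.11.15. Promoters are from RefSeq, GRCm38.p6, the build of mm10.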

Additional observations from a re-analysis of the deposited data

Results flagged for a closer look

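The age difference (old against young, log2) differed between members and monocytes of the same pools for 16 genes by the interaction test of edgeR. It was more positive in members for Hba-a1 (3.83), Hba-a2 (3.79), Hbb-bt (3.40) and Hbb-bs (2.95), and none of these 4 was called without the 4 haemoglobin-rich members (log2 0.11 to 0.34). It was also more positive for Tspan13 (1.99) and Cd74 (0.89). Tspan13 stood at 191 and 116 CPM in the young and 244 and 379 CPM in the old samples in members and at 261 and 177 CPM in the young and 124 and 122 CPM in the old samples in monocytes, so that both old samples lay above both young ones in members and below them in monocytes.

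It was more negative in members for Aif1 (-2.59), Ly6c2 (-1.86), Trf (-1.81), F13a1 (-1.74), Mpeg1 (-1.60), S100a10 (-1.29), Lgals1 (-1.20), Ccr2 (-1.19), Ifi30 (-1.05) and Lgals3 (-0.96). Mpeg1 stood at 495 and 318 CPM in the young and 215 and 174 CPM in the old samples in members and at 320.3 and 350.1 CPM in the young and 475 and 522 CPM in the old samples in monocytes, and F13a1 at 191 and 232 CPM in the young and 172 and 141 CPM in the old samples and 158 and 107 CPM in the young and 304 and 339.9 CPM in the old samples. Monocytes of at least 3 Ly6c2 UMIs were also taken alone, which sets the monocyte level of Ly6c2 itself. Of the other 9, Tspan13 and Cd74, none was then called (adjusted p from 0.31 to 1 by edgeR). All of these values were nearer 0 than those above. They stayed closest in proportion for Aif1 (-2.03), Tspan13 (1.57) and Cd74 (0.70). The others were Trf (-1.10), Mpeg1 (-0.94), F13a1 (-0.76), Lgals1 (-0.72), S100a10 (-0.65), Ifi30 (-0.47), Lgals3 (-0.44) and Ccr2 (-0.34). The part of the mix of monocytes in them was not tested.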

How the results depend on the processing

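The limits are the 2 samples per age, the 11 to 24 members per sample and the 62679 to 155610 UMIs they hold, so that a moderate age difference of a gene could be missed. For age, where the main test called 7 genes, leaving out 1 sample gave 9 to 19 (the lone sample is then assumed to vary like the others), no filter on low counts 17, Cd209a at 1 UMI or more 11 and at 3 or more 17, and members without the haemoglobin-rich cells or the sums without haemoglobin genes 1 each. DESeq2, edgeR's own expression filter, members low in Lyz2, members high in Lyz2, members without lymphocyte or platelet UMIs (17 cells, 1 in old 1) and counts thinned to 1000 UMIs called 0, with 14, 74, 92, 100, 14 and 25 genes at an unadjusted p below 0.05. With the replicate number as a block, 19 were called (14 higher and 5 lower). The deviations of same-numbered samples from the mean of their age had a correlation of 0.052. Both pairs give this same value, since 2 samples deviate from their mean by equal and opposite amounts. It cannot show whether same-numbered samples share more than a number.

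Against monocytes, 613 genes were called, and leaving out 1 sample gave 351 to 538, DESeq2 305, members high in Lyz2 243, members without lymphocyte or platelet UMIs 254 and thinned counts 161. For the interaction, 16 were called, and leaving out 1 sample gave 7 to 19, DESeq2 5, Cd209a at 3 UMIs or more 10, no haemoglobin-rich members 10, no replicate block 9, monocytes with at least 3 Ly6c2 UMIs 5, thinned counts 4, members high in Lyz2 3, and members low in Lyz2 or without lymphocyte or platelet UMIs 0, with 101 and 38 at an unadjusted p below 0.05. The share of members differed between ages by 1.51 percentage points of cells outside B and T cells and by -2.58 of members and monocytes, against 0.293 of all cells, which was -0.137 without old 2. Without thinning, the age difference in the share of members with a UMI was 6.60 points for Syngr2 (-26.1 thinned), 22.5 for Flt3 (-1.17) and 40.1 for Clec10a (7.05). Hbb-bt turned to log2 -0.0063 between ages without the haemoglobin-rich members, and the Cd74 interaction to -0.44 with members without lymphocyte or platelet UMIs. Beyond those settings that leave out cells or genes, the cause was not tested. Of the 591 alternatives for genes named against monocytes, 583 kept their call and direction. These genes had been picked as the largest called differences, many of them with a direction fixed by the filter. Of the alternatives for genes named between ages, 59 of 114 kept theirs, 54 lost the call and 1 reversed. For the interaction, 192 of 313 kept theirs, 120 lost the call and 1 reversed.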
